A study of Homo sapiens with 2 samples.

Results

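The genes of the NF-kB transcription factor and of its nearest inhibitors were examined in A375 cells, a long-established line from a human melanoma, with and without a hairpin against BMI1. A list of 10 genes was chosen by name from the NF-kB pathway by a rule that uses no measured value, though with earlier results of these data known. Of them, 9 had a row on the array under their symbol in the platform's annotation, each a single row. They are the subunit genes NFKB1, NFKB2, RELA, RELB and REL, the inhibitor genes NFKBIA, NFKBIE and TNFAIP3, and the ubiquitin ligase gene BIRC2. The tenth gene of the list was not analysed here. The 9 genes belong to 16583 genes with a symbol on the array. The first culture carried an empty lentivirus. The second carried a short hairpin RNA that targets BMI1 on the same kind of virus, and is called shBMI-1. BMI1 is a subunit of Polycomb repressive complex 1, which silences genes through chromatin. Both cultures were the same A375 line, and each was measured on 1 single-colour array. Replicate error is therefore missing throughout, and the cultures could not be compared by a test.

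NF-kB is a dimer of Rel-family proteins that waits in the cytoplasm, held there by IkB proteins such as those made from NFKBIA and NFKBIE. In the canonical pathway, a receptor for TNF or interleukin 1 activates the IkB kinase, IkB is degraded, and dimers of RELA or REL with the p50 product of NFKB1 enter the nucleus. In the non-canonical pathway, the kinase encoded by MAP3K14 drives the processing of the NFKB2 precursor to p52, which pairs with RELB, and a ubiquitin ligase complex that holds TRAF3 and BIRC2 keeps that kinase low in resting cells. NFKBIA, TNFAIP3 and the subunit genes NFKB1, NFKB2, RELB and REL are themselves known targets of NF-kB, which closes feedback loops. The pathway is often active in melanoma cells without an outside signal. All of it acts largely through protein stability and location, which an RNA array does not measure.

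Windows of 250 bases before the annotated start of each gene were taken from RefSeq sequence of build GRCh38.p14 to show the sequence near their starts, since several are known NF-kB targets. Each window was searched on both strands for the NF-kB consensus motif, which is 10 bases long. The table held windows for 7 of the 9 genes and none for RELB and NFKBIE. A match lay in a window of 5 of these 7 genes, and no window of RELA or BIRC2 held these letters. Counted by window, 6 of the 12 windows of the 7 genes held a match. Over the whole RefSeq table, 11.8% of 27305 genes had a match in at least 1 window, and 9.96% of 35116 windows had one. The windows of 4 genes are shown in the direction of transcription, with matches in capitals, because each holds a match close to its first or only annotated start.
NFKB1, chr4:102501109-102501358, plus strand: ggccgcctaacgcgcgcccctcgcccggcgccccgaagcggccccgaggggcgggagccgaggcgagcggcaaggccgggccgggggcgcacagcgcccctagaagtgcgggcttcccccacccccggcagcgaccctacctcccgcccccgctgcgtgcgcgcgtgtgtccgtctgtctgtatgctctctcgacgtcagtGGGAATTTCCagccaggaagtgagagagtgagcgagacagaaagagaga
REL, chr2:60881324-60881573, plus strand: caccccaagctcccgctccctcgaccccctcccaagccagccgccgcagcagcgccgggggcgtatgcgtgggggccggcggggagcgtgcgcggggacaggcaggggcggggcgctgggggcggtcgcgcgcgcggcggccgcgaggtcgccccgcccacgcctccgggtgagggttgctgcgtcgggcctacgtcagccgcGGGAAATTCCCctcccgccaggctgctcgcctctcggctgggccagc
NFKBIA, chr14:35404750-35404999, minus strand: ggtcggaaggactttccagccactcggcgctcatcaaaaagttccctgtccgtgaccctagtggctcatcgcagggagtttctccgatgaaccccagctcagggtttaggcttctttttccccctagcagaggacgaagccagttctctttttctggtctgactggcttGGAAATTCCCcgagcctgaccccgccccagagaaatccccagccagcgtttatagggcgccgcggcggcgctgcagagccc
TNFAIP3, chr6:137867009-137867258, plus strand: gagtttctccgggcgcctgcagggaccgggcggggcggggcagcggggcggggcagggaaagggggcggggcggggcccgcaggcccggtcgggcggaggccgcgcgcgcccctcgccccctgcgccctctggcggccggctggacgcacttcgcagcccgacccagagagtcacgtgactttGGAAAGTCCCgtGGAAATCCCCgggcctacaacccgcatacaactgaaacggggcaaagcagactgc
In REL the capitals join overlapping matches on opposite strands. The matches in NFKB1 and REL began 49 and 47 bases before the start, that in NFKBIA began 81 bases before it, and those in TNFAIP3 began 67 and 55 bases before it. The table gives NFKB2 3 starts, and the windows of the second and the third held matches. That of the second included GGGAATTCCC, which reads as a match on both strands, 107 bases before the start, and that of the third included GGGACTTTCC, 21 bases before it. A match is a string of letters and was not tested for binding here.

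The hairpin's own target and the identity of the cells were checked first. The labels report checks of the silencing by PCR and by western blot, neither of them analysed here. On the arrays, BMI1 was at an intensity of 68.6 in empty vector cells and 25.8 in shBMI-1 cells, 2.66-fold lower on a dim row. Its log2 ratio (shBMI-1 minus empty vector) of -1.41 lay inside the 5th to 95th percentile of genes of like level, -1.44 to 1.41. The median intensity of all 45033 rows was 131.2 in empty vector cells and 129.8 in shBMI-1 cells, and a gene at or above it on at least 1 array was taken as bright enough to read. The log2 intensities of both arrays had a Pearson r of 0.969 over rows, and rows do not count as replicates. SOX10, S100B and S100A1, which mark melanoma cells, were bright on both arrays, while the pigment cell genes MITF, TYR, TYRP1, PMEL and MLANA were under that limit. None of 4 endothelial and none of 5 fibroblast markers reached the limit as the mean of its rows, though 1 of the 4 rows of DCN did (258.7 and 174.6). Of 7 white blood cell markers, LAPTM5 and CD68 reached it, and PTPRC, which defines those cells, was at 12.9 and 12.3. Of 5 epithelial markers KRT5 and KRT14 reached it, and EPCAM (55.5 and 17.2) and CDH1 (15.3 and 14.1) did not. The 2 white blood cell markers that reached it differed in opposite directions, with CD68 at 1607 and 2562 and LAPTM5 at 151.9 and 19.3 (7.88-fold lower). The summed intensity of the white blood cell markers was 1889 in empty vector cells and 2754 in shBMI-1 cells, most of it CD68. That of the epithelial markers was 1154 and 1467, and the part of either in the values below was not tested. In bulk RNA, fewer cells that express a gene and less of its RNA per cell cannot be told apart.

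Most NF-kB genes had slightly higher intensities with shBMI-1, and none of the differences lay outside the central range of genes of like level. Of the 9 genes, 8 had a log2 ratio (shBMI-1 minus empty vector) above 0, where 55.2% of all named genes did, and BIRC2 had one below 0. Among the 7 genes at or above the brightness limit, 6 were above 0, against 60.0% of all genes there. The median log2 ratio of the 7 was 0.24, and that of all 8921 genes at or above the limit was 0.09. NFKBIE reached the limit only in shBMI-1 cells, which fixes its place above 0. Of the 6 genes that reached it on both arrays, 5 were above 0, with a median of 0.23. The share over all genes bright on both arrays was not computed. None of the 7 reached a 2-fold difference, which 6.78% of all genes at or above the limit did, or a 1.5-fold one, which 18.6% did. Among genes of like level, the share past 2-fold ran from 0.24% for RELA to 9.13% for NFKBIA and NFKBIE. The lack of 2-fold differences in the brightest of the 7 is therefore usual for their level. REL, under the limit, was the only gene of the 9 past 2-fold, where 10.9% of all named genes were in either direction and 5.32% were in its direction, higher with shBMI-1. With a pseudocount of 50 its log2 ratio was 0.52, short of 2-fold.

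**Figure D1:**
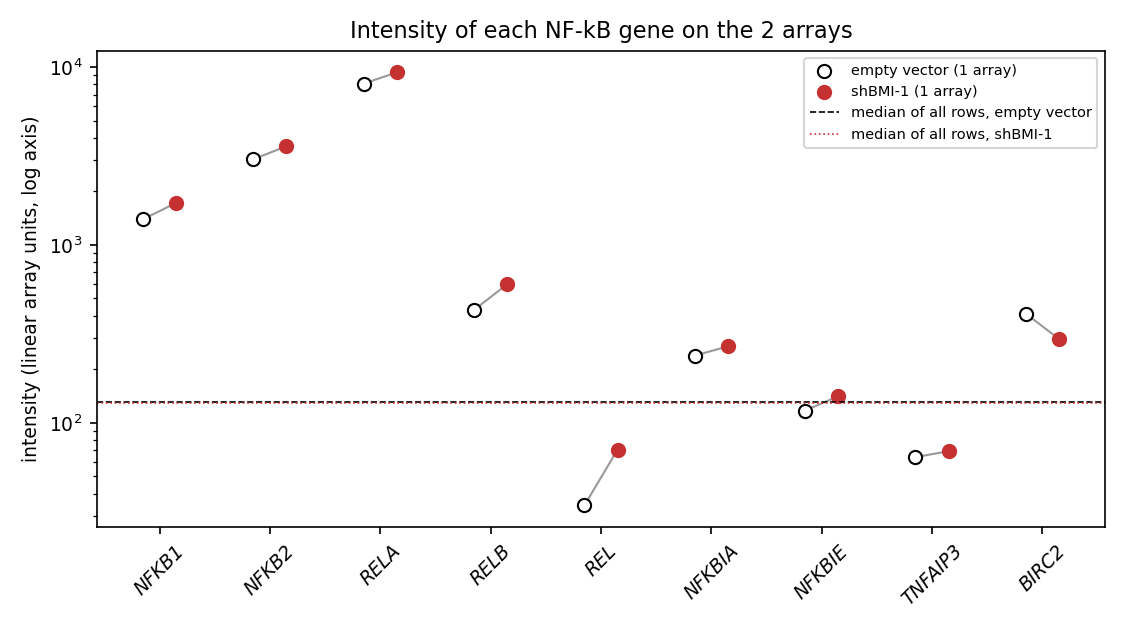
Intensity of each of the 9 NF-kB genes on the empty vector array (open circles) and the shBMI-1 array (filled circles), on a log axis in linear array units, with the median of all rows of each array as a broken line. Each point is 1 array value without replicates. The lines between points slope up for 8 genes and down for BIRC2, and REL and TNFAIP3 lie under both medians. Heights of different genes are not comparable, since each rests on its own probes.

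The subunit genes were all above 0. RELA, which encodes p65, the main activating subunit, was at 8070 in empty vector cells and 9327 in shBMI-1 cells, for a log2 ratio of 0.21. NFKB1, whose product p105 is both an inhibitor and the precursor of p50, was at 1393 and 1723, for a log2 ratio of 0.31. These are the usual partners of the canonical dimer, and the shBMI-1 array was the higher for both by less than 1.5-fold. NFKB2, the precursor of p52, was at 3032 in empty vector cells and 3585 in shBMI-1 cells, for a log2 ratio of 0.24. RELB, the partner of p52, was at 430.9 and 601.5, which is 1.40-fold higher and a log2 ratio of 0.48. RELB had the highest ratio among the 7 genes at or above the brightness limit. REL, which encodes c-Rel, a subunit best known from lymphocytes, was at 34.4 in empty vector cells and 70.6 in shBMI-1 cells, 2.05-fold higher. Both REL values were dim, at the 22.6th and the 37.8th percentile of their arrays. Among the 2477 genes of the same level band (mean intensity 32 to 64), 22.4% differed by 2-fold in either direction, and BMI1 itself lies in this band.

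The inhibitor genes were above 0 as well. NFKBIA encodes IkB-alpha, which is degraded on stimulation and made again as a direct target of NF-kB. It was at 238.8 in empty vector cells and 268.9 in shBMI-1 cells, for a log2 ratio of 0.17. NFKBIE, which encodes IkB-epsilon, was at 117.3 and 141.0, for a log2 ratio of 0.27, and only its shBMI-1 value lay above the median of its array. TNFAIP3, which encodes A20, an enzyme that edits ubiquitin chains and ends the signal, was at 64.1 and 69.3, for a log2 ratio of 0.11. TNFAIP3 was under the brightness limit on both arrays. The ratios of the 3 inhibitor genes ran from 0.11 to 0.27, while those of the 4 subunit genes at or above the limit ran from 0.21 to 0.48. With 1 array per culture these ranges, which overlap, could not be tested against each other.

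BIRC2 was on the other side of 0. It encodes cIAP1, a ubiquitin ligase that supports the canonical signal at the TNF receptor and, with TRAF3, restrains the non-canonical kinase. BIRC2 was at 410.9 in empty vector cells and 295.9 in shBMI-1 cells, 1.39-fold lower and a log2 ratio of -0.47. Relative to the median of all genes at or above the limit, the log2 ratio of BIRC2 was -0.56 and that of RELB was 0.39. BIRC2 and RELB lay in the same level band (mean intensity 256 to 512), in which 4.60% of 1826 genes differed by 2-fold.

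The files allowed 1 measure of spread, the row SD: how far apart the ratios of several rows lay within a gene, pooled over genes of like level. Since rows of a gene may read different transcripts, it is not pure error. The row SD was 0.20 at the level of RELA, 0.23 at that of NFKB2, 0.25 at that of NFKB1 and 0.42 at that of RELB and BIRC2. It was 0.60 for NFKBIA and NFKBIE, 0.76 for TNFAIP3 and 0.80 for REL. Of the 9 genes, 6 had a ratio of at least 1 row SD, where 31.6% of all named genes did. They were the 5 subunit genes and BIRC2, at 1.05 to 1.29 row SDs. This count was 3 after quantile normalization (RELB, REL and BIRC2) and 2 after loess normalization (REL and BIRC2). After either of them, 30.5% of all named genes had such a ratio. None of the 9 lay outside the 5th to 95th percentile of the ratios in its own level band, where 10.0% of all named genes do by construction. For RELA this range ran from -0.28 to 0.42, for RELB and BIRC2 from -0.76 to 0.79, and for REL from -1.44 to 1.41.

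**Figure D2:**
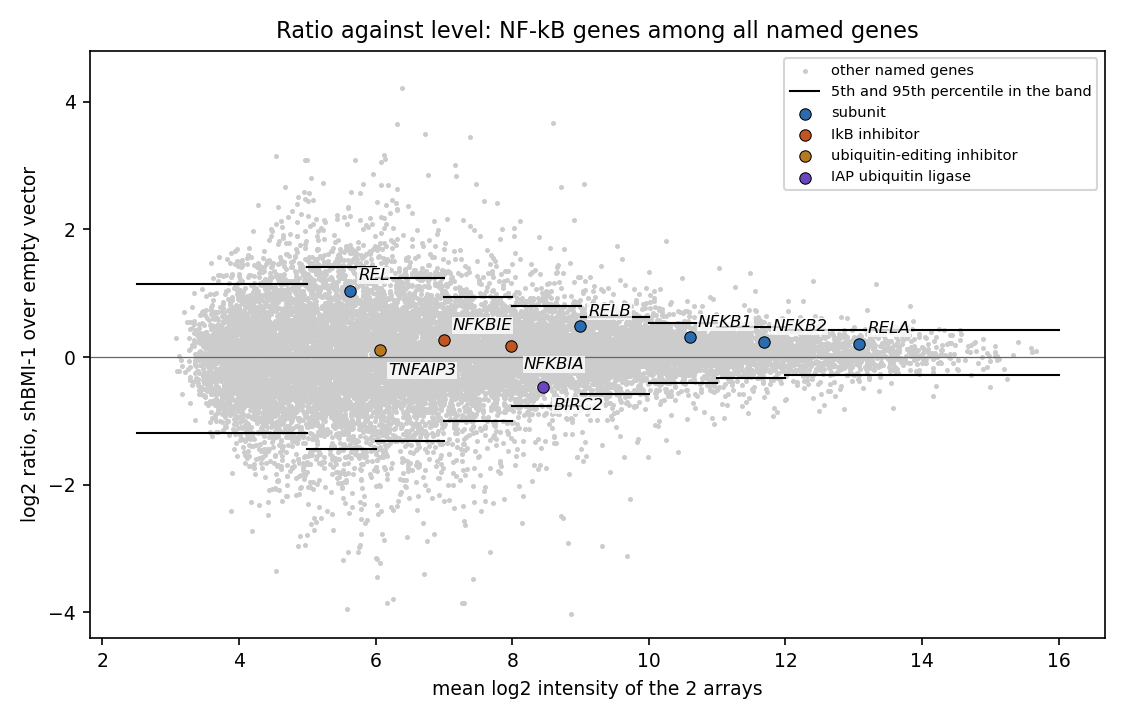
Log2 ratio of shBMI-1 over empty vector against the mean log2 intensity of both arrays for all named genes (grey) and the 9 NF-kB genes (coloured by role), with the 5th and 95th percentile of the ratios in each level band as black lines. All 9 genes lie between the lines of their bands, and the spread of grey points narrows from dim to bright genes.

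**Figure D3:**
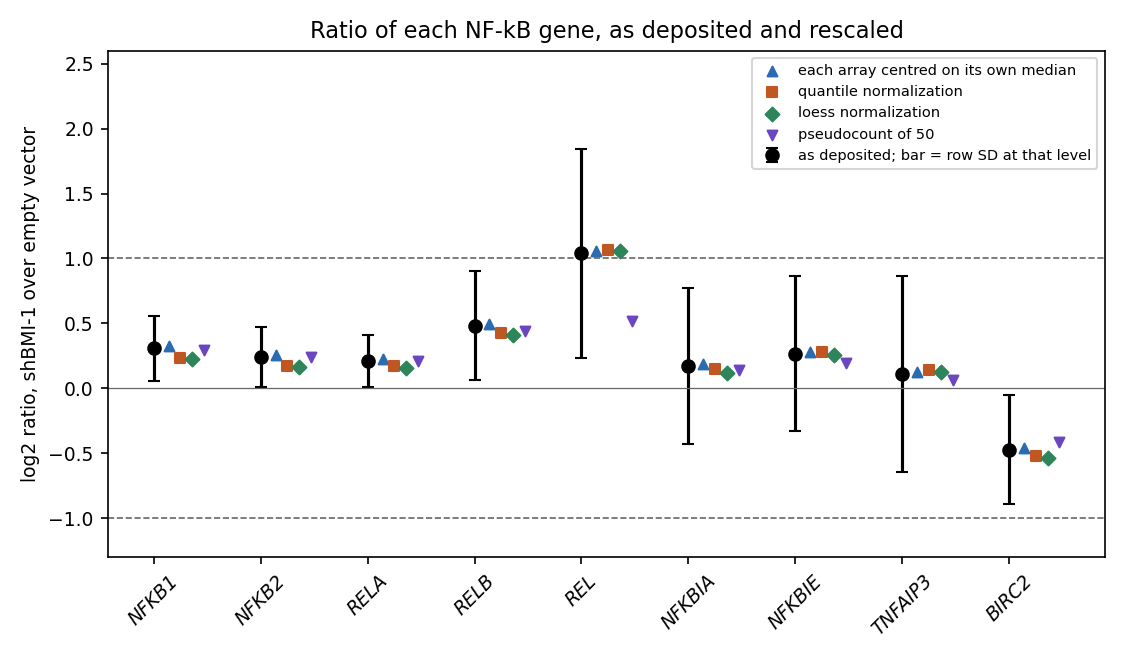
Log2 ratio of each NF-kB gene as deposited (black, with the row SD at its level as the bar) and after 3 other normalizations or with a pseudocount of 50 (coloured symbols). Broken lines mark 2-fold. All symbols of BIRC2 lie below 0 and all those of the other 8 genes above 0, and the value of REL with the pseudocount is 0.52.

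The rest of the pathway was read from lists of its ligands, receptors, adaptors, kinases, other inhibitors and target genes. Of 85 such genes with a row, 46 were above 0 and 39 below, where 55.2% of all named genes were above 0. At or above the brightness limit were 44 genes, of which 29 were above 0, with a median log2 ratio of 0.12, and 1 differed by 2-fold. Of all genes at that brightness, 60.0% were above 0, with a median of 0.09, and 6.78% differed by 2-fold. These shares are also the reference for each list below. Of the 44, 4 (TNFSF12, NFKBID, CXCL2 and CFLAR) reached the limit only on the array where they were brighter, which fixes the side of 0 they lie on. Among the 40 that reached it on both arrays, 28 were above 0 and 0 differed by 2-fold. The shares above cover genes bright on at least 1 array. For genes bright on both no share was computed, so such counts here and below have no like reference. Counts above 0 include genes so near it that quantile and loess normalization put them below, namely LTBR, IRAK1, PDLIM2 and SQSTM1. Only 1 of these 44 lay outside the range of its level band, where 11.6% of all genes at that brightness did. It was TNFRSF1A, the main receptor for TNF, at 4944 in empty vector cells and 7097 in shBMI-1 cells, which is 1.44-fold higher. Its log2 ratio of 0.52 was 2.62 row SDs, above the 95th percentile of 0.42 in its band, and ran from 0.46 to 0.54 over the other normalizations and with the pseudocount.

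Ligand genes were mostly dim. Of 10 with a row, 2 reached the brightness limit, and both were below 0, TNFSF12 having reached it only in empty vector cells, where it was higher. TNFSF12, which encodes TWEAK, a ligand that activates the non-canonical pathway, was at 226.5 in empty vector cells and 119.6 in shBMI-1 cells (log2 ratio -0.92, row SD 0.60). LTB, a subunit of the lymphotoxin ligand, was at 267.3 and 199.1 (-0.42). TNF itself was at 46.6 and 32.2, and IL1B was at 69.8 and 102.0, all under the limit, both named here as the textbook inducers. TNFSF10 (14.6 and 40.5) and TNFSF11 (93.9 and 40.2) were past 2-fold in opposite directions under the limit, and are named after their values were seen. In their level bands, 14.6% and 22.4% of all genes were past 2-fold, respectively.

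Of 13 receptor genes, 5 reached the limit and 4 of them were above 0, with a median log2 ratio of 0.13. Beside TNFRSF1A, the second TNF receptor gene TNFRSF1B was at 1186 and 1331 (log2 ratio 0.17). LTBR, the lymphotoxin receptor gene, had a ratio of 0.05, and over the alternatives it ran from -0.04 to 0.06. CD40, a receptor of the non-canonical pathway, was the gene below 0, at 227.1 in empty vector cells and 156.2 in shBMI-1 cells (-0.54, row SD 0.60).

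Among adaptors and ubiquitin ligases, 10 of 14 reached the limit, 7 of them above 0, with a median of 0.12. Across all 14 measured adaptor genes the median log2 ratio was -0.0089, and 7 lay on each side of 0. TRAF3, which recruits the non-canonical kinase for degradation, was at 578.4 in empty vector cells and 779.5 in shBMI-1 cells (log2 ratio 0.43, row SD 0.30). UBE2N, the conjugating enzyme for K63-linked chains, was at 293.3 and 404.4 (0.46, row SD 0.42). RBCK1, a subunit of the linear ubiquitin ligase, had the lowest ratio, -0.22, and TAB1, a partner of the kinase TAK1, followed at -0.03, with its rows at 0.10 and -0.17. BIRC2 and TRAF3 act in one complex and had ratios of opposite sign.

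Of 8 kinase genes, 7 reached the limit, and 5 of these were above 0, with a median of 0.20. Over the 2 kinase genes that reached the 75th percentile the median was -0.14. CHUK, which encodes IKK-alpha, the kinase of both pathways, was at 143.6 in empty vector cells and 220.1 in shBMI-1 cells (log2 ratio 0.62, row SD 0.60). IKBKB, which encodes IKK-beta, was at 474.6 and 545.4 (0.20), and IKBKG, the regulatory subunit NEMO, was at 1726 and 1873 (0.12). All 3 subunits of the IkB kinase were above 0, as were 60.0% of all genes at that brightness. Each was so by less than its row SD except CHUK, at 1.03 row SDs. Over the alternatives the CHUK ratio ran from 0.48 to 0.63, and that of IKBKG from 0.03 to 0.13. MAP3K14, the non-canonical kinase NIK, was at 287.7 and 358.9 (0.32, row SD 0.42). TBK1 had a ratio of 0.54, while its relative IKBKE (-0.50) and MAP3K7, which encodes TAK1 (-0.39, its rows at -0.23 and -0.55), were below 0.

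Other inhibitors gave 7 of 9 genes above 0 at or above the limit, with a median of 0.24. Without NFKBID, which reached the limit only in shBMI-1 cells, 6 of 8 were above 0. TNIP2, a partner of A20, was at 755.0 in empty vector cells and 1090 in shBMI-1 cells (log2 ratio 0.53, row SD 0.30). NFKBID, a nuclear IkB, had a like ratio (0.53) on a dimmer row, at 93.3 and 134.7. NFKBIB, which encodes IkB-beta, was at 451.3 and 399.7 (-0.18), on the other side of 0 from NFKBIA and NFKBIE. TAX1BP1, another A20 partner, had a ratio of -0.24. CYLD, a deubiquitinase that ends the signal, was dim at 50.8 and 32.2. TNIP3 was the only gene of this list past 2-fold, at 34.8 and 116.4 under the limit, and is named after its values were seen. In its level band, 22.4% of all genes were past 2-fold.

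Target genes of NF-kB lay on both sides of 0. Of 25 with a row, 11 reached the limit, of which 6 were above 0 and 5 were below it. Their median was 0.03, and it was -0.04 after quantile and -0.05 after loess normalization. Of the 5 below 0, CXCL2 and CFLAR reached the limit only in empty vector cells, which fixes the side they lie on. The near-even split therefore rests in part on the limit. Without these genes, 6 of 9 target genes had a positive log2 ratio and 3 a negative one, and the median became 0.05. CFLAR, which encodes c-FLIP, an inhibitor of death receptor signalling, was the only one of the 11 past 2-fold, at 148.5 in empty vector cells and 68.9 in shBMI-1 cells (2.15-fold lower, row SD 0.76). It reached the limit only through its higher value, and none of the 9 target genes bright on both arrays passed 2-fold. With a pseudocount of 50 its log2 ratio was -0.74. Under the limit, CXCL8 (36.1 and 84.0) was higher and VCAM1 (29.5 and 12.9) lower by over 2-fold. In their level bands, 22.4% and 14.6% of all genes were past 2-fold, respectively. Both genes are named after their values were seen. IL6, a textbook target named in the same way, was at 14.2 and 12.2.

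**Figure D4:**
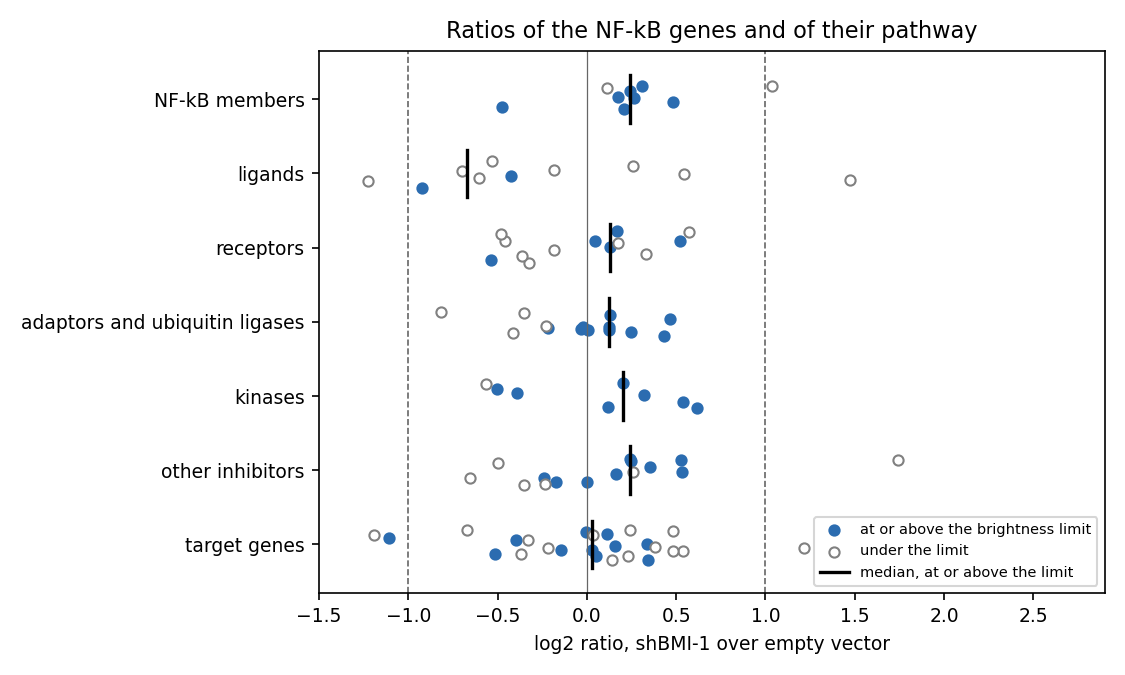
Log2 ratio of shBMI-1 over empty vector for the NF-kB genes and 6 lists of pathway genes, 1 point per gene, filled at or above the brightness limit and open under it. Vertical bars mark the median of the filled points and broken lines 2-fold. The filled points of the NF-kB genes have a median of 0.24 and those of the target genes one of 0.03.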

How the data were processed

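Per the labels' protocols, double-stranded cDNA from total RNA was Cy3-labelled and applied to single-colour NimbleGen arrays. The deposited values are linear intensities, 1 for each row on each array. How the authors scanned, summarised and normalized them is not given in the sources used here, and background values were not used here. Groups came from the sample titles.

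Of 45033 rows, 18188 carried 1 symbol in the platform's annotation. Log2 values were taken with no pseudocount, and rows of a symbol were averaged. The brightness limit was an array's median over all rows, reached on 1 or both arrays, and the threshold was 2-fold. Row SDs were pooled in bands of doubling level. No p-value was computed. The procedure was tested on simulated data. The members and lists were chosen with earlier results of these data known. All 9 members with a row were named. Of each list, the genes past 2-fold at or above the limit were named, otherwise the 2 highest and 2 lowest there. TNFRSF1A, CHUK, IKBKB, IKBKG, MAP3K14, NFKBIB, CYLD and BMI1 were named in any case. No gene is named for a like pattern, since with 2 arrays any pair correlates fully. The counts by row SD, by band range and by a limit on both arrays were added after the data were seen. One gene of the list is not reported here. Alternatives were median centring, quantile and loess normalization (span 0.3), a pseudocount of 50, the brightest row, other limits and thresholds, and the mean. The number of arrays limits the precision. Python 3.11.15 with numpy 2.4.6, pandas 2.3.3, statsmodels 0.14.6 and matplotlib 3.10.9 was used.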

Additional observations from a re-analysis of the deposited data

How the results depend on the processing

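No paired analysis was possible because each group has 1 array and no result comes from a test. Over 5 alternatives (median centring, quantile and loess normalization, a pseudocount of 50, the brightest row), the 45 recomputed ratios of the 9 NF-kB genes kept their sign and stayed within 1 row SD of the value as deposited. Much of this was fixed in advance. Each gene has 1 row, so the brightest row returned the deposited value. A pseudocount cannot change a sign, and median centring moved every ratio by the same small amount. In practice, signs could change only under quantile and loess normalization, where all 9 genes kept theirs. The REL ratio was 0.52 with the pseudocount, which ends its 2-fold call. The median of the NF-kB genes ran from 0.17 (loess) to 0.27 (75th percentile as the limit), and none of the bright ones passed 1.5-fold or 3-fold. With no brightness limit, 1 of 9 NF-kB genes, 2 of 10 ligands, 1 of 15 other inhibitors and 3 of 25 targets passed 2-fold. Of all named genes, 10.9% did. The list medians without a limit were -0.48 for ligands and -0.0089 for adaptors, and more dim genes entered. With a limit at the 75th percentile, medians were -0.14 for kinases over 2 genes and 0.36 for other inhibitors over 3, and 0 targets passed 2-fold. With the pseudocount the ligand median was -0.53 and 0 targets passed 2-fold. At 1.5-fold, 1 of 2 ligands and 1 of 7 kinases passed, where 18.6% of all genes at that brightness did. At 3-fold, 0 targets passed. With the limit applied to both arrays, an alternative chosen after seeing the data, 0 targets passed 2-fold, the ligand median was -0.42 over 1 gene, and the median of the NF-kB genes was 0.23. Whether dim values such as those of REL and TNFAIP3 lay above background is unknown.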

Other observations

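Genes with an NF-kB motif match in a promoter window were compared with those without over the whole array. Of 13483 named genes with a window, 1977 had a match (14.7%). Among those at or above the brightness limit, the 1183 genes with a match had a median log2 ratio of 0.09 and the 6233 without one also had a median of 0.09. A 2-fold difference was seen in 4.82% of the former and 6.85% of the latter. Levels of both sets were not matched and no test was made.

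A match was present in 11 of the 20 target genes with a window, in 7 of 13 other inhibitor genes and in 4 of 9 ligand genes. None of 10 receptor genes and 1 of 7 kinase genes had one. The 4 target genes with a match at or above the limit had a median log2 ratio of -0.18, and the 4 without one had a median of 0.07. Those with a match include CXCL2 and CFLAR, which reached the limit only in empty vector cells. That fixes their place below 0, so the 2 medians cannot be set against each other. For the NF-kB genes themselves the medians were 0.24 over 3 genes with a match and -0.13 over 2 without. The 2 without were RELA (0.21) and BIRC2 (-0.47), on opposite sides of 0, so their median describes neither. For adaptors the medians were 0.22 over 2 and 0.05 over 6, and for other inhibitors 0.21 over 4 and 0.36 over 3. Sets this small were not compared.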
